A study of Mus musculus with 11 samples.

Results

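The otic placode and prosensory transcription factors examined here were Pax2, Gata3, Eya1, Eya4, Isl1, Lmx1a, Hmx2, Hmx3 and Tbx1. They were chosen by name, as the probes whose RefSeq accession leads to these symbols, and made up 9 of 20284 genes that could be named in this way and 10 of 55681 probes on the array. Pax2 had 2 probes and each of the others 1, and all 10 passed the filter on dim probes. Otospheres are floating spheres grown from dissociated cochlear sensory epithelia (CSE). The study asked which genes set them apart from their tissue of origin and from embryonic stem cells (ESCs). The arrays numbered 11, each carrying Cy3-labelled RNA of 1 sample, with 6 of otospheres (OS1 to OS6), 3 of CSE and 2 of ESCs. Otospheres and CSE came from ICR mice aged 1 day, with 10 mice and 20 cochleae pooled per preparation, and no group carried a transgene or a deletion by its label. Otospheres were grown in medium with bFGF and IGF1 and had 1 passage, preceded and followed by 4 to 5 days of culture. Each ESC array held a line of its own, G4-2 for the first and D3 for the second, both at passage 13 and kept undifferentiated in serum and LIF. CSE is a dissected tissue of several cell types, and otospheres descend from whichever of its cells form spheres, so both are mixtures.

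The inner ear arises from the otic placode, a thickening of the head ectoderm that folds into the otocyst. Pax, Eya and Dach proteins act as a network in this placode. Gata3, the Hmx genes and Tbx1 pattern the otocyst. The prosensory domain, from which hair cells and supporting cells arise, keeps Gata3 and expresses Isl1, while Lmx1a marks the non-sensory epithelium and limits the sensory patches. Pax2 is a paired-box factor of the placode and the cochlear duct. Eya1 and Eya4 are transcriptional coactivators with phosphatase activity, and mutations of either cause hearing loss.

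OS1 and OS2 differed by less than the noise between spots of the same probe, with a ratio of 0.839 over 13454 bright probes, and so did OS4 and OS5, with a ratio of 0.365. For the other 17 within-group pairs the lowest ratio was 1.48. Each of these pairs was therefore averaged and counted as 1 sample, leaving 4 otosphere, 3 CSE and 2 ESC samples, written below as OS1+2, OS3, OS4+5 and OS6, CSE1 to CSE3, and ES1 and ES2. The first slide held ES1, OS1-3, CSE1 and CSE2, and the second ES2, OS4-6 and CSE3. Between 55.1% and 71.6% of probes were well above background on an array, and no spot was saturated. Marker genes mostly fitted the labels, with exceptions. Nanog, by the 1 probe that a RefSeq accession named, was not higher in ESCs by the test. The summed signal of 4 ESC markers, on the log2 scale, was 17.34 to 17.65 in ESCs and at most 10.93 elsewhere. That of 8 hair cell markers was 14.38 to 14.54 in CSE, 11.09 to 13.08 in otospheres and 10.93 to 11.17 in ESCs. For 8 spiral ganglion neuron markers it was 14.67 to 15.63 in CSE, 11.94 to 13.38 in otospheres and 14.07 to 14.11 in ESCs. In these neuronal markers ESCs thus exceeded otospheres. Such sums follow their brightest genes, and Pvalb, with a mean of 13.74, made up most of the hair cell sum in CSE. Replicate numbers are not stated to be separate preparations, so p-values measure the spread between these samples only.

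All values below are log2 signals after background correction and quantile normalization, given as mean ± SD, and differences are on the same scale. Tests came from a limma model with 3 group means, adjusted over 47997 probes (Benjamini-Hochberg), and an adjusted p under 0.05 counted as a difference. Each value is compared between samples for 1 probe and not between probes. The marker sums and the closest profiles are the exceptions, as they combine or compare different probes. Across the 3 groups, 7 of the 9 genes passed the F-test, against 33.8% of all probes, the exceptions being Eya1 and Pax2. Against CSE, 3 of the 9 were lower in otospheres (Gata3, Isl1 and Hmx2) and 0 were higher, where 6.19% of all probes were lower and 4.84% higher. At an unadjusted p under 0.05, 4 of the 9 differed, again with 0 of them higher, against 22.3% of all probes in either direction. Against ESCs, 5 were higher in otospheres (Gata3, Isl1, Tbx1, Lmx1a and Eya4), against 12.1% of all probes, and 7 were higher in CSE, against 13.2%, the further genes being Hmx2 and Hmx3. The share of all probes that were lower than in ESCs was 15.6% both for otospheres and for CSE, and 0 of the 9 genes were among them. The median difference over the 9 genes was -1.01 for otospheres minus CSE, 3.94 for otospheres minus ESCs and 3.99 for CSE minus ESCs, where the medians of all probes were 0.02, -0.03 and -0.06.

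**Figure D1:**
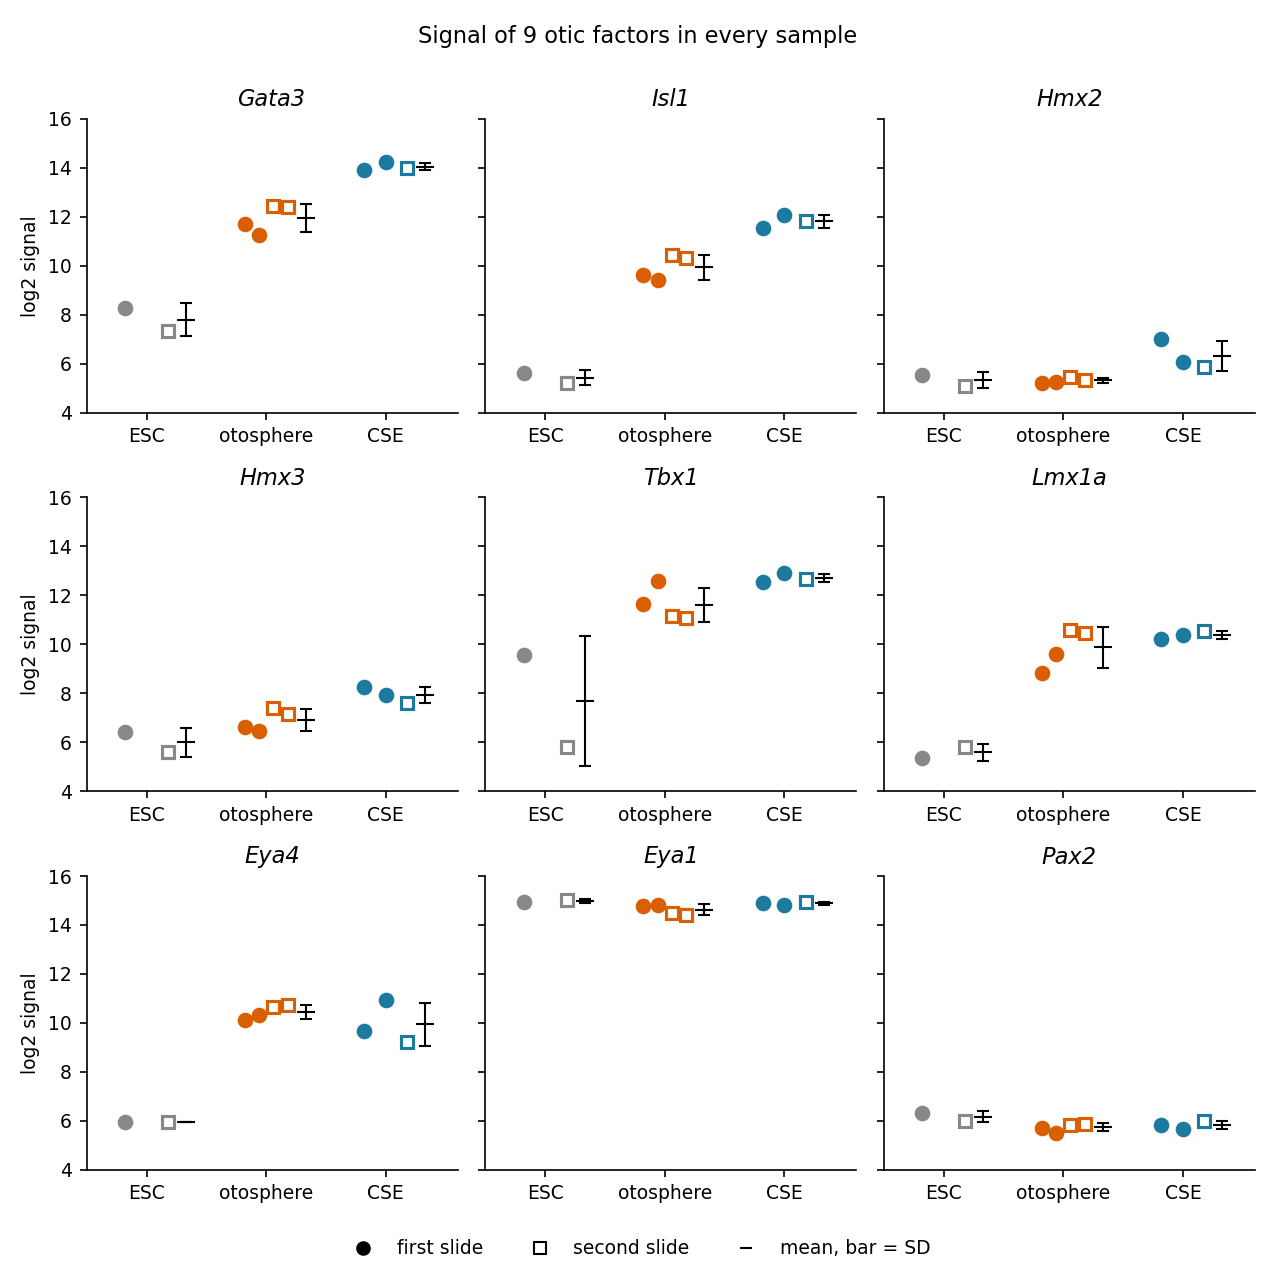
Log2 signal (vertical axis) of the main probe of each gene in every sample, with filled circles for the first slide, open squares for the second, and the mean with its SD (n = 2 ESC, 4 otosphere and 3 CSE samples). Gata3, Isl1, Hmx2 and Hmx3 show all otosphere samples below all CSE samples, Lmx1a and Eya4 overlap between the 2 groups, and Eya1 and Pax2, with otosphere samples below both ESC samples, did not pass the F-test.

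**Figure D2:**
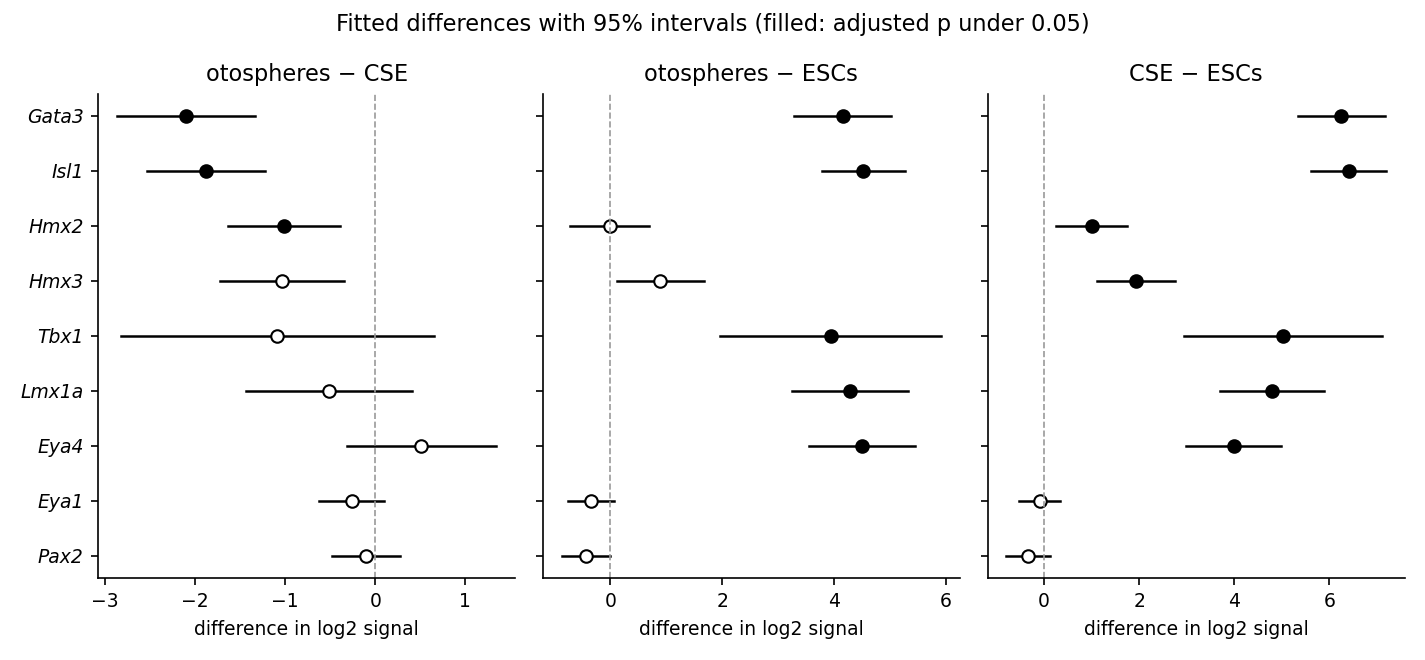
Fitted differences in log2 signal (horizontal axis) for the 9 genes in 3 comparisons, with 95% intervals as bars and filled points where the adjusted p was under 0.05. Otospheres lie to the left of zero against CSE for Gata3, Isl1 and Hmx2, and to the right of zero against ESCs for 5 genes.

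Gata3 encodes a zinc-finger factor required for the otic placode and for prosensory cells. Its probe (A_66_P111011) had a log2 signal of 11.69 in OS1+2, 11.28 in OS3, 12.45 in OS4+5 and 12.41 in OS6. It was 13.93, 14.24 and 14.01 in CSE1 to CSE3 and 8.28 and 7.33 in ES1 and ES2. The 3 groups did not overlap, and the order of levels was ESCs, otospheres, CSE, with each neighbour set apart by more than its spread. Otospheres had a mean of 11.96 ± 0.57 (SD, n = 4), CSE of 14.06 ± 0.16 (SD, n = 3) and ESCs of 7.80 ± 0.67 (SD, n = 2). The otospheres were thus 2.10 below CSE on the log2 scale (standard error 0.34, 95% interval of the difference -2.87 to -1.34), a 4.29-fold lower signal (limma, adjusted p = 0.00467). They exceeded ESCs by 4.15, or 17.8-fold (limma, adjusted p = 9.48e-05), and CSE exceeded ESCs by 6.25, or 76.4-fold. In bulk RNA, fewer cells with a transcript and less transcript per cell cannot be told apart, here and in every comparison that follows.

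Isl1, a LIM-homeodomain factor found in prosensory cells and in spiral ganglion neurons, followed the same course. The probe (A_52_P337246) is spotted 10 times on each array. Its mean over spots was 9.61 in OS1+2, 9.41 in OS3, 10.45 in OS4+5 and 10.31 in OS6, against 11.56, 12.10 and 11.82 in CSE1 to CSE3. ES1 and ES2 had 5.64 and 5.21, and in ES2 0 of 10 spots were well above background. The groups again did not overlap and stood in the order ESCs, otospheres, CSE. The means were 11.82 ± 0.27 (SD, n = 3) for CSE, 9.94 ± 0.51 (SD, n = 4) for otospheres and 5.42 ± 0.31 (SD, n = 2) for ESCs. Otospheres minus CSE was -1.88 (standard error 0.29, 95% interval -2.54 to -1.23), a 3.69-fold lower signal (limma, adjusted p = 0.00379). With the processed signal scaled to its 75th percentile the difference was -1.68, with an adjusted p that fell just short of the threshold by limma. In the deposited table it was only -0.19 (limma, adjusted p = 0.573). In that table the Isl1 probe had values of 0.92 to 1.04 in otospheres and 1.16 to 1.21 in CSE, far under the log2 signals above, and 10 times the difference in the table, 10 being the number of spots, is -1.95. Otospheres exceeded ESCs by 4.52 (limma, adjusted p = 2.74e-05), a size that depends on the background correction because the probe was well above background on 1 of 2 ESC arrays. It was 5.20 with an offset of 0, 3.72 with an offset of 50 and 6.30 with the 75th percentile scaling.

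Of 17227 genes with a probe well above background on at least 2 arrays, Isl1 was the gene whose profile over the 9 samples lay closest to that of Gata3, and Gata3 was the closest to Isl1. The measure was the root mean square difference between profiles centred on their own means, which was 0.21 for this pair. Next came Prdm16 for Gata3, at 0.30, and Cldn22 for Isl1, at 0.27. This is a description of 9 samples in which the spread between groups has the largest share.

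Promoter windows of the RefSeq annotation (GRCm38.p6, 250 bases before to 50 after each start) were found for 8 of the 9 genes, with 13 windows in all. Eya1 had no entry. Their GC content ran from 50.0% to 78.0%, where the median of 32851 windows was 52.7%, and 11 of the 13 held more than the median of 7 CpG dinucleotides. The 150 bases before the start are shown for Gata3 and Isl1, which were lower in otospheres than in CSE. Those of Hmx2, which was also lower, are not shown. Lmx1a and Eya4, which did not pass the test against CSE, are shown as well. Capitals mark matches, on either strand, to GATAA (the motif of GATA factors), CANNTG (an E-box), TAATTA (a homeodomain core), GGTGTGA (a T-box motif), CAAGTG (an NK-type homeobox motif, which is also an E-box) and ACAAAG (a Sox motif). Sequences run 5′ to 3′ on the strand of the gene.
Gata3, chr2:9878601-9878750, minus strand: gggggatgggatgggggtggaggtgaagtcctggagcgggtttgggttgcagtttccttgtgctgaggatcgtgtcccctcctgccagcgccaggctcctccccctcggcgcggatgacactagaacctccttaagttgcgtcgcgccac
Isl1, chr13:116309689-116309838, minus strand: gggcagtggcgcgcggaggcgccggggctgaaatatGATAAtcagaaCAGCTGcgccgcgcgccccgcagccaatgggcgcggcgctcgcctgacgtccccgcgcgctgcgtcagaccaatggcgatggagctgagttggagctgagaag
Lmx1a, chr1:167689408-167689557, plus strand: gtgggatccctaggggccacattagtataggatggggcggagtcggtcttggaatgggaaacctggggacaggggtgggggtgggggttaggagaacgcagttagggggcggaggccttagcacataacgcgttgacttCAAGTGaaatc
Eya4, chr10:23349891-23350040, minus strand: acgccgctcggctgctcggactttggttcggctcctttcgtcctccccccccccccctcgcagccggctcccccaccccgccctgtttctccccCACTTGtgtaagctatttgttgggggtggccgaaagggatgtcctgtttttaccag
Eya4 has 2 annotated starts with overlapping windows, and the stretch shown was chosen because it holds a match; that of the other start holds none. The stretches of Gata3, Lmx1a and Eya4 lie inside the interval that the annotation gives for the gene, whose longest form starts farther upstream. The Isl1 stretch held GATAA and an E-box 6 bases downstream of it, Lmx1a and Eya4 each held 1 CAAGTG, and Gata3 held none of the motifs. Among stretches of the same length before all starts, 13.3% held GATAA, 47.7% an E-box and 6.6% CAAGTG, so each of these matches is also found in many other promoters. Over the full windows, GATAA was found in 1 of 13 and CAAGTG in 4 of 13, against 25.4% and 13.6% of all windows, with the 2 overlapping Eya4 windows sharing 1 CAAGTG site that is counted in both. Neither TAATTA nor GGTGTGA was found in any of the 13, against 5.3% and 4.0% of all windows.

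Hmx2 and Hmx3 encode NK-type homeodomain proteins of the vestibular part of the otocyst, and in the annotation no gene is listed between them. Hmx2 (A_55_P2099620) had a log2 signal of 5.22, 5.24, 5.47 and 5.33 in OS1+2, OS3, OS4+5 and OS6, and of 7.03, 6.07 and 5.88 in CSE1 to CSE3. In ES1 and ES2 it was 5.55 and 5.09. The probe was well above background on all 3 CSE arrays but on only 2 of the 6 otosphere arrays, OS4 and OS5, so the otosphere level lies close to the detection limit. Otospheres, at 5.32 ± 0.11 (SD, n = 4), were 1.01 below CSE, at 6.33 ± 0.61 (SD, n = 3), with no overlap (limma, adjusted p = 0.0481). The size of the difference depended on the background correction, from -0.65 with an offset of 50 to -2.80 with the processed signal scaled to its 75th percentile. The call was narrow and was lost in 12 of 18 alternative settings, over which the adjusted p ran from 0.0124 to 0.110. Without CSE replicate 1, the sample with the highest signal, the difference was -0.66 (limma, adjusted p = 0.110). Otospheres and ESCs differed by -0.01, less than the spread between replicates (95% interval -0.71 to 0.70).

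For Hmx3 (A_51_P413910) the log2 signals were 6.61, 6.44, 7.40 and 7.14 in OS1+2, OS3, OS4+5 and OS6. They were 8.27, 7.94 and 7.60 in CSE1 to CSE3, and 6.41 and 5.59 in ES1 and ES2. Every otosphere sample was below the lowest CSE sample and above both ESC samples. The mean of 6.90 ± 0.45 (SD, n = 4) in otospheres was 1.04 below the 7.94 ± 0.33 (SD, n = 3) of CSE, which did not pass the threshold (limma, adjusted p = 0.0638, 95% interval -1.73 to -0.35). It passed in 4 of 18 alternatives, some of which left a single ESC sample. Another of the 4 was the fit with every array as a separate sample (limma, adjusted p = 0.0334). That fit counts both arrays of each averaged pair as independent, which understates the spread. CSE exceeded ESCs by 1.94 (limma, adjusted p = 0.00385), while otospheres exceeded them by 0.90 (limma, adjusted p = 0.0880). In ESCs the probe was well above background on 1 of 2 arrays. Counting all 9 genes, 4 had every otosphere sample below every CSE sample (Gata3, Isl1, Hmx2 and Hmx3) and 0 had the reverse, against 12.7% and 10.8% of all probes.

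Tbx1 encodes a T-box factor of the otocyst and of the mesenchyme around it. Its probe (A_55_P2051716) had a log2 signal of 11.67 in OS1+2, 12.59 in OS3, 11.17 in OS4+5 and 11.06 in OS6, and of 12.56, 12.90 and 12.67 in CSE1 to CSE3. OS3 thus lay within the range of CSE, and the other otosphere samples below it. The ESC samples stood far apart, with 9.57 in ES1 (G4-2) and 5.80 in ES2 (D3), where the probe was not well above background. Each was 1 array on a slide of its own, so line and slide cannot be told apart. Otospheres had a mean of 11.62 ± 0.70 (SD, n = 4) and CSE of 12.71 ± 0.17 (SD, n = 3), a difference of -1.09 that did not pass the test (limma, adjusted p = 0.511, 95% interval -2.83 to 0.66). Otospheres exceeded ESCs by 3.94 (limma, adjusted p = 0.00883) and CSE exceeded them by 5.02 (limma, adjusted p = 0.00334). Because of the gap between ES1 and ES2, otospheres minus ESCs was 2.05 without ES replicate 2 and 5.82 without ES replicate 1. The summed signal of 6 periotic mesenchyme markers (Pou3f4, Tbx18, Twist1, Col1a1, Col1a2 and Col3a1) also differed between the otosphere samples. On the log2 scale it was 16.79 in OS3, 15.74 in OS1+2, 13.82 in OS4+5 and 9.35 in OS6, the same order as for Tbx1, against 16.74 to 17.63 in CSE and 11.36 to 11.52 in ESCs. Of these 6 genes, 1 was lower in otospheres than in CSE (Col1a1), against 6.19% of all probes. Their part in the Tbx1 values was not tested.

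Lmx1a, a LIM-homeodomain factor of the non-sensory epithelium, was near the CSE level in some otosphere samples and below it in others. The probe (A_55_P2146314) gave 8.81 in OS1+2, 9.61 in OS3, 10.60 in OS4+5 and 10.46 in OS6. CSE1 to CSE3 had 10.22, 10.39 and 10.54, and ES1 and ES2 had 5.35 and 5.82. OS4+5 and OS6 therefore lay among or just above the CSE samples, and OS1+2 and OS3 below them. The mean of 9.87 ± 0.83 (SD, n = 4) differed from that of CSE, 10.38 ± 0.16 (SD, n = 3), by -0.51, within the spread of the otosphere samples (limma, adjusted p = 0.576, 95% interval -1.43 to 0.40). Both groups stood apart from ESCs, otospheres by 4.29 (limma, adjusted p = 2.09e-04) and CSE by 4.80 (limma, adjusted p = 1.50e-04). In ESCs the probe was well above background on 1 of 2 arrays. Otospheres minus ESCs ran from 3.32 to 5.65 over 18 alternative settings. The genes with the closest profiles were Tspan12, at a root mean square difference of 0.26, and Dnase1, at 0.29. The summed signal of 6 markers of the cochlear roof and stria (Oc90, Otx2, Kcne1, Kcnq1, Bsnd and Trpm1), also non-sensory, was 17.50 to 17.80 in CSE, 11.86 to 12.91 in otospheres and 12.80 to 13.47 in ESCs on the log2 scale. Of these genes, Oc90, which makes up most of the sum in CSE, was lower in otospheres than in CSE and Kcnq1 higher. No array had Kcne1 well above background. In ESCs most of the sum is Otx2, with a mean of 13.06. Their part in the Lmx1a values was not tested.

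By the main probes, Eya4 had the only positive difference from CSE among the 9 genes. Its probe (A_55_P2041529) had a log2 signal of 10.11, 10.33, 10.64 and 10.74 in OS1+2, OS3, OS4+5 and OS6. The CSE samples spread from 9.23 in CSE3 through 9.67 in CSE1 to 10.92 in CSE2, and so enclosed all otosphere samples. The means were 9.94 ± 0.88 (SD, n = 3) for CSE, 10.45 ± 0.29 (SD, n = 4) for otospheres and 5.95 ± 0.01 (SD, n = 2) for ESCs. The difference of 0.51 between otospheres and CSE was less than the spread within CSE (limma, adjusted p = 0.517, 95% interval -0.32 to 1.34). The absence of a call rested on CSE replicate 2. Without that sample the difference was 1.00 (limma, adjusted p = 0.0404), and the count of members higher in otospheres became 1. Over ESCs, Eya4 was raised by 4.50 in otospheres (limma, adjusted p = 9.59e-05) and by 3.99 in CSE (limma, adjusted p = 2.35e-04), and in ESCs it was well above background on 1 of 2 arrays. Gas2 and Loxl1 had the closest profiles, at root mean square differences of 0.45 and 0.46.

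Eya1 did not differ between the 3 groups by the F-test. Its target sequence is not in the sources used here, so the probe could not be checked against the gene. The single probe (A_55_P2423586) had log2 signals of 14.79, 14.83, 14.47 and 14.42 in OS1+2, OS3, OS4+5 and OS6, of 14.88, 14.83 and 14.95 in CSE1 to CSE3, and of 14.92 and 15.03 in ES1 and ES2. All otosphere samples lay below both ESC samples, by a difference that did not pass the test, and by this probe the signal in ESCs was as high as in CSE. Otospheres minus CSE was -0.26 (limma, adjusted p = 0.424, 95% interval -0.62 to 0.10), and otospheres minus ESCs was -0.35 (limma, adjusted p = 0.200). With the processed signal scaled to its 75th percentile, Eya1 was lower than in ESCs in otospheres, by -1.25 (limma, adjusted p = 0.0135), and in CSE, by -1.22 (limma, adjusted p = 0.0197). That scaling also moved the median of all probes, to -0.31 and -0.28.

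Pax2 was close to background throughout. The main probe (A_55_P2075127) had log2 signals of 5.72, 5.50, 5.84 and 5.88 in OS1+2, OS3, OS4+5 and OS6, of 5.83, 5.68 and 6.01 in CSE1 to CSE3, and of 6.33 and 6.01 in ES1 and ES2. It was well above background on 4 of 6 otosphere arrays and on all CSE and ESC arrays. The second probe (A_55_P2148518) ranged from 5.46 to 5.94 over the 9 samples and was well above background on 1 of 3 CSE arrays. By the main probe all otosphere samples lay below both ESC samples, which did not pass the test. Otospheres minus CSE was -0.10 by the main probe (limma, adjusted p = 0.842, 95% interval -0.48 to 0.28) and 0.17 by the second (limma, adjusted p = 0.620), so no difference of Pax2 between otospheres and CSE was detectable at these signals.

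The otosphere samples were not alike in these genes. In both sets the fall of Gata3 and Isl1 was present, but it was larger in OS1-3. Relative to the mean of CSE, Gata3 stood at 19.4% and 14.5% in OS1+2 and OS3 and at 32.7% and 31.8% in OS4+5 and OS6. Isl1 stood at 21.5% and 18.7% in the first set and at 38.5% and 34.9% in the second. Lmx1a showed the widest gap, with 33.6% and 58.5% in the first set against 116% and 105% in the second. Tbx1 ran the other way, with 48.5% and 92.4% against 34.4% and 32.0%. In a limma model with separate means for OS1-3 and OS4-6, 0 of the 9 genes passed the adjusted threshold, as did 0.0896% of all probes. At an unadjusted p under 0.05 there were 3 genes, Gata3, Isl1 and Lmx1a, against 11.2% of all probes. In OS4-6 they were higher by 0.94, 0.87 and 1.32 (limma, adjusted p = 0.280, 0.190 and 0.116). With every array as a separate sample, Isl1 and Lmx1a passed the threshold (limma, adjusted p = 0.0248 and 0.0128). That fit counts both arrays of each averaged pair as independent, which understates the spread between samples.

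OS4-6 were also the otospheres of the second slide, and within otospheres the set and the slide cannot be told apart. In CSE, the mean of CSE1 and CSE2 on the first slide and the single CSE3 on the second were 14.08 and 14.01 for Gata3, 11.83 and 11.82 for Isl1 and 10.31 and 10.54 for Lmx1a. In ESCs, where each slide held a different line, the values of these genes were 8.28 and 7.33, 5.64 and 5.21, and 5.35 and 5.82. Within the first slide, otospheres minus CSE was -2.60 for Gata3, -2.32 for Isl1 and -1.10 for Lmx1a. Within the second it was -1.58, -1.45 and -0.01. For Hmx2 the values were -1.32 and -0.48, for Hmx3 -1.58 and -0.34, and for Tbx1 -0.60 and -1.55, with CSE3 as the only CSE sample of the second slide. Hair cell markers also differed between the sets, with a log2 summed signal of 11.64 and 11.09 in OS1+2 and OS3 and of 12.60 and 13.08 in OS4+5 and OS6. Their part in the differences between the sets was not tested.

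**Figure D3:**
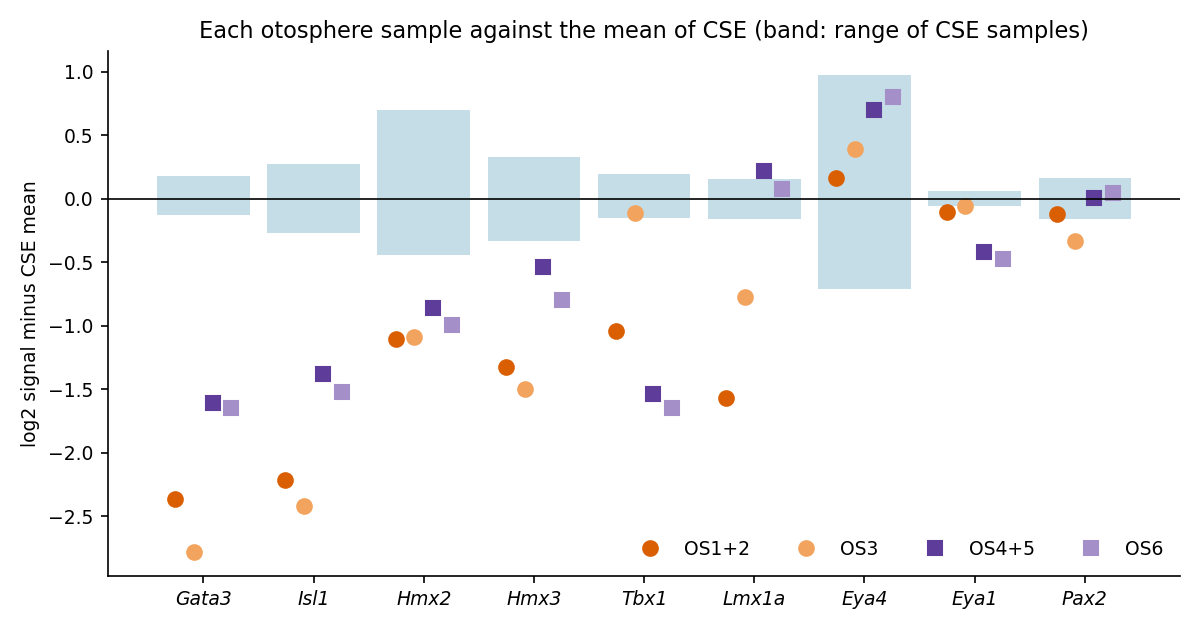
Log2 signal of each otosphere sample minus the mean of CSE (vertical axis) for the 9 genes, with circles for OS1-3 and squares for OS4-6 and a band for the range of the 3 CSE samples around their mean. For Gata3, Isl1, Hmx2 and Hmx3 all 4 otosphere samples lie below the band, and for Lmx1a the squares lie at or above it and the circles below.

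The further genes of the otic network were taken from 5 lists with 50 genes, all of which passed the filter, 5 of them also on a list of cell type markers. Compared with CSE, 13 of the 50 were lower and 1 higher in otospheres, where 6.19% of all probes were lower and 4.84% higher, and their median difference was -0.60, where that of all probes was 0.02. The list of the Pax, Eya and Dach network had 5 of 11 lower (Eya2, Dach1, Six5, Dach2 and Sall1), with a median of -0.62, and 0 higher. Eya2, the paralog of the 2 Eya members above, had the largest fall of the 50, from 11.80 ± 0.10 (SD, n = 3) in CSE to 8.62 ± 0.85 (SD, n = 4) in otospheres, a difference of -3.18 (limma, adjusted p = 0.00787). For Eya3 the CSE mean was 11.24 ± 0.13 (SD, n = 3) and the otosphere mean 11.12 ± 0.24 (SD, n = 4), which differed by -0.12 and did not pass the test (limma, adjusted p = 0.868).

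The prosensory and neurosensory list had 7 of 9 lower than in CSE, against 6.19% of all probes, with a median of -2.30. Sox2, an HMG-box factor of the prosensory domain and of pluripotent cells, fell by 2.76 (limma, adjusted p = 4.24e-04), from 10.99 ± 0.19 (SD, n = 3) in CSE to 8.23 ± 0.50 (SD, n = 4), and was 12.59 ± 0.12 (SD, n = 2) in ESCs. The Id genes, inhibitors of bHLH factors, differed by -3.04 for Id1 (limma, adjusted p = 0.00161), -2.51 for Id2 (limma, adjusted p = 0.00258) and -2.90 for Id3 (limma, adjusted p = 0.0248), all lower in otospheres. The call of Id3 was lost in 5 of 18 alternatives, with adjusted p-values of up to 0.0969 (without CSE replicate 3). Mycl, Mycn and Prox1 also fell, Prox1 from a signal well above background on all 3 CSE arrays to one well above it on 0 of 6 otosphere arrays, and Neurog1 and Neurod1 did not pass the test. Of the placode competence genes 0 of 9 passed in either direction, with a median of -0.06, and of the T-box genes 0 of 4, with a median of -0.85. Among 17 otocyst homeobox genes, Lhx3 was lower and Prrx2 higher, with a median of -0.03. Some genes of the placode and homeobox lists lay near background in both groups, where a difference could hardly show. Gbx2 was well above background on 0 of 6 otosphere and 0 of 3 CSE arrays. Gata2, at -0.95 (limma, adjusted p = 0.0593), and Foxi2, at 0.38 (limma, adjusted p = 0.378), did not pass. Lists with few calls are therefore not shown to be unchanged. Prrx2, a paired-related homeobox gene, rose by 2.32 (limma, adjusted p = 0.00342), from 11.71 ± 0.11 (SD, n = 3) in CSE to 14.03 ± 0.40 (SD, n = 4) in otospheres.

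**Figure D4:**
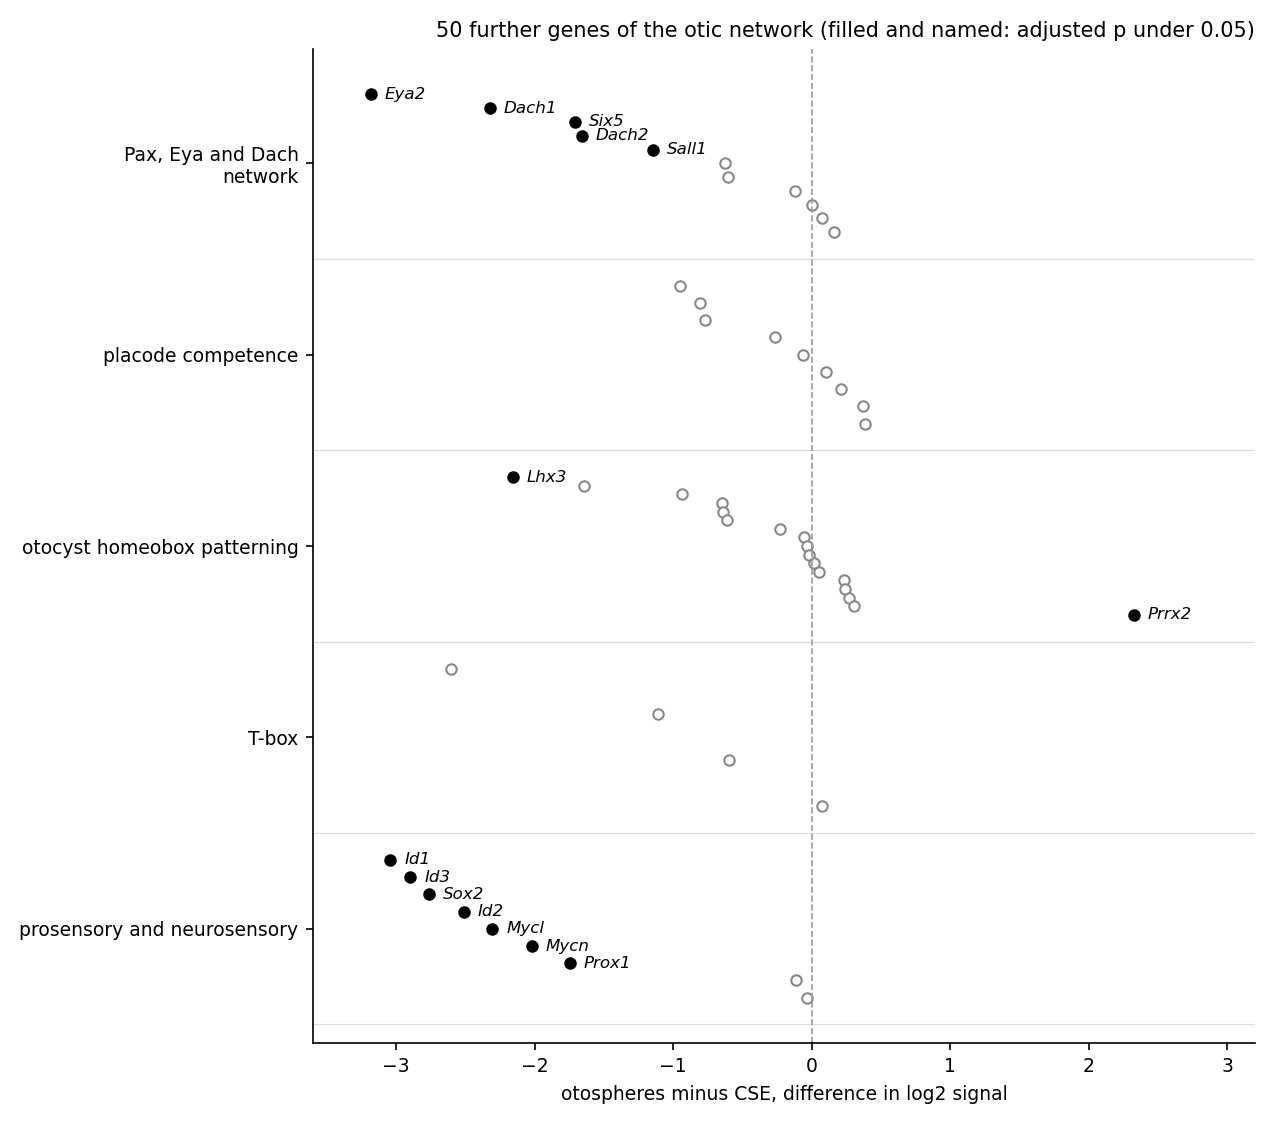
Otospheres minus CSE in log2 signal (horizontal axis) for 50 further genes in 5 lists, 1 point per gene, filled and named where the adjusted p was under 0.05. Falls number 5 of 11 in the Pax, Eya and Dach list, 7 of 9 in the prosensory list and 1 of 17 in the otocyst homeobox list, and Prrx2 is the single rise. On the otosphere arrays Prox1 did not rise well above background, so its point depends on the offset.

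Markers of the cell types of CSE also differed between otospheres and CSE, to unlike extents. Among all probes, 6.19% were lower and 4.84% higher. Of the 8 supporting cell markers 8 were lower in otospheres than in CSE, and their summed signal on the log2 scale was 14.75 to 15.45 against 17.18 to 17.61. Epyc, with a mean of 14.84, made up most of that sum in otospheres. Of the 8 hair cell markers 4 were lower, and of the 8 spiral ganglion neuron markers 6, with log2 sums of 11.94 to 13.38 against 14.67 to 15.63 for the latter. Glial markers, of which 2 of 4 were lower and 1 higher, overlapped in their sums, at 13.78 to 14.57 in otospheres and 14.21 to 14.45 in CSE. Endothelial markers had 1 of 3 lower, with sums of 12.62 to 13.23 against 13.23 to 13.40, and macrophage markers 1 of 2, with sums of 11.05 to 12.01 against 12.36 to 12.74. The part of these cell types in the lower signals of Gata3, Isl1 and Hmx2 was not tested.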

How the data were processed

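RNA of 6 otosphere, 3 CSE and 2 ESC arrays was analysed. The scanner files, as deposited, hold median signal intensity and local background per spot on the linear scale (Feature Extraction 10.7.3.1, grid build mm 9), with no normalization between arrays. A second deposited file, a log2 table that the authors background-corrected with limma, quantile-normalized and filtered, was used only as an alternative.

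With limma 3.58.1 (R 4.3.3), intensities underwent normexp correction with an offset of 16 and then, as log2 values, quantile normalization across the 11 arrays. Control probes and outlier spots were left out and spots of a probe averaged. A probe stayed in when it exceeded the 95th percentile of 308 negative controls by 10% or more on at least 2 arrays, which left 47997 of 55681. Names came from RefSeq accessions (26762 probes). A gene's main probe is that with the highest mean signal.

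The pairs OS1 and OS2, and OS4 and OS5, were averaged. A limma model of 3 group means (9 samples) gave the F-test and pairwise differences, and a model with 4 means compared OS4-6 with OS1-3. The adjustment was Benjamini-Hochberg over kept probes. Simulated data with changes in a small share of probes served to test the code. Of these changes, 22% of those of size 1 and 62% of those of size 2 were recovered in otospheres against CSE. The rule named every probe of the 9 members, the 5 largest falls and rises of at least 1 among the further genes past the threshold, and the 2 closest profiles per member. Genes past the threshold in a list, list members that define it, and some that did not pass were named besides by their results. The members and lists were chosen with earlier results of these data known. Alternatives were the offset (0, 50), the 75th percentile scaling, the deposited table, the filter (3 arrays, none), the second Pax2 probe, slide and replicate blocks, every array separate, a test without moderation, and leaving out each sample. The number of arrays limits the precision. Replicate numbers were not used to pair samples. A gene of the wider list is not reported here.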

Additional observations from a re-analysis of the deposited data

Results flagged for a closer look

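Hmx2 in otospheres minus ESCs had opposite signs on the 2 slides, -0.319 on the first and 0.307 on the second. Each slide held a different ESC line, the probe was well above background on 1 of 2 ESC arrays and 2 of 6 otosphere arrays, and the difference between the slides was not tested.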

How the results depend on the processing

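Gata3 was lower in otospheres than in CSE in all 18 alternatives, from -2.50 to -1.76, with adjusted p-values of at most 0.0280. The calls of Gata3, Tbx1, Lmx1a and Eya4 against ESCs, in otospheres and in CSE, held in all 18 as well. Isl1 lost its call against CSE in 2, and its call of otospheres against ESCs in the deposited table (0.51, limma, adjusted p = 0.0690). In that table the Isl1 values lay far under its log2 signals, at 0.92 to 1.04 in otospheres. The Isl1 differences there, also against CSE, are therefore not comparable in size with the others. Hmx2 lost its calls against CSE and of CSE against ESCs in 12 each.

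Scaling to the 75th percentile gave 1 member lower in otospheres than in ESCs and 1 in CSE, both Eya1, and moved the median difference of all probes from ESCs to -0.31 and -0.28. With every array separate, 2 members (Isl1 and Lmx1a) differed between OS4-6 and OS1-3, in a fit that counts both arrays of each averaged pair as independent. The share of all probes past the threshold in that fit is not given here, so this count has no background beside it. Leaving out 1 sample at a time gave 0 to 1 members higher and 2 to 3 lower in otospheres than in CSE, 6 to 7 higher in CSE than in ESCs, and 6 to 7 past the F-test.

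Differences near 0 changed sign. Hmx2 in otospheres minus ESCs was 0.00622 with an offset of 0, 0.00355 in the deposited table, 0.00425 with every array separate and 0.0156 with the replicate block. Without 1 sample at a time it ran from -0.235 to 0.223, and was 0.0248 without OS1+2 and 0.0196 without OS3. Pax2 against CSE was 0.17 by its second probe.

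The replicate numbers did not pair the samples, as the deviations of same-numbered samples correlated between -0.39 and 0.36 over 7 pairs. The fit with the replicate block took every array as separate, and no CSE or ESC array shares the replicate numbers of OS4-6. Its difference from CSE therefore came from OS1-3 alone, with OS1 and OS2 counted as separate samples. In it 4 members were lower than in CSE, with -1.31 for Lmx1a (limma, adjusted p = 0.0172) and -1.38 for Hmx3 (limma, adjusted p = 0.0291). The share of all probes lower in the replicate block fit is not given here. Hmx2, at -1.10 (limma, adjusted p = 0.0801), did not pass. The cause of the changes in the other settings was not tested. Signals near background limit Hmx2 and Pax2, and 2 ESC lines limit every comparison with ESCs.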
